A study of Mus musculus with 32 samples.

Results

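A set of 9 mouse genes holds many regions from an Ago2 CLIP experiment that the authors paired with a microRNA of the imprinted miR-379/410 cluster. The 9 genes are Snhg11, Lrrc58, Ankrd52, Crebrf, Csnk1a1, Zkscan1, Mycn, Pou2f1 and Spty2d1. They were taken from the authors' deposited table of matched regions, in which each row pairs 1 region, 1 gene and 1 microRNA label. A gene needed 4 or more rows, and 9 were listed out of 636 gene names in the table. The members hold 5 to 9 rows each, 58 of 997 in all. They are not every gene past that threshold: 41 names reach 4 rows, among them POU2F1, a capitalised name that repeats the 5 rows of Pou2f1. Tnrc6a with 9 rows and Trim71 with 8 rows are examples that are not members. Just inside the threshold, 22 names hold exactly 4 rows, with a median log2 fold of 1.54 over the untagged control. Just outside it, 35 names hold exactly 3 rows, with a median of 2.25. The genes were chosen by their number of rows, and so on CLIP values, which are given as a description without a test. RNA levels played no part in the 4-row threshold. What set the 9 apart from the other names past it is not stated. The list was drawn up with earlier results of these data known, so the choice may not be independent of the RNA results.

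Induced neurons (iNs) were harvested on Day 10 after doxycycline switched on a TetO-Ngn2 transgene, and hybrid mouse embryonic stem cells (ESCs) on Day 0. Deletion cells were Mirg(Delta/+), lacking the maternal copy of the cluster, and control cells were Mirg(fl/+), with a floxed allele. Both RNA-seq (rRNA-depleted, 12 libraries) and small RNA-seq had 3 replicates each of deletion iNs, control iNs, deletion ESCs and control ESCs. Ago2 seCLIP, which sequences RNA crosslinked to Ago2, used control iNs that expressed exogenous HA-Ago2 or untagged Ago2, with anti-HA immunoprecipitates and inputs in 2 replicates of each kind. The labels do not say whether replicates were separate clones or cultures, so p-values measure the spread between these libraries only.

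RNA-seq libraries held 14904722 to 21499071 gene counts, and small RNA libraries 744307 to 1532255 mature microRNA counts. Mirg, which the deletion targets, had 2, 0 and 2 counts in deletion iNs, against 455, 685 and 648 in control iNs. It had 0 counts in each deletion ESC library, against 932, 672 and 789 in control ESCs. Summed over 8 neuronal markers, the level was 6351 to 6412 CPM (counts scaled to a common library size) in deletion iNs, 6027 to 6200 in control iNs, 191 to 204 in deletion ESCs and 174 to 183 in control ESCs. Over 8 stem cell markers it was 8.13 to 8.77 CPM in deletion iNs, 14.2 to 15.5 in control iNs, 1755 to 1836 in deletion ESCs and 1841 to 1925 in control ESCs. Over 6 glial markers it was 43.0 to 48.6 CPM in deletion iNs and 36.5 to 40.8 in control iNs, with 2 of 6 at 0 in both. Over 6 fibroblast markers it was 55.8 to 63.9 CPM in deletion iNs and 35.2 to 46.7 in control iNs. In both, 5 of 6 were under 1 CPM, so these iN sums are mostly Thy1. In ESCs the fibroblast sum was 90.7 to 100.4 CPM with the deletion and 53.1 to 61.5 in controls. These marker sums differ between the genotypes of iNs, and the neuronal, stem cell and fibroblast sums also between those of ESCs. Their part in the results below was not tested. In bulk libraries, fewer cells of a type and less RNA per cell cannot be told apart.

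A microRNA loaded into an Argonaute protein pairs with messenger RNAs chiefly through its seed, bases 2 to 8. Argonaute then recruits the Tnrc6 proteins and, through them, deadenylases that shorten the target's tail, so that a target is usually translated less and decays sooner. The miR-379/410 cluster is transcribed from the maternal chromosome only and is active in brain and in embryonic cells. The 9 genes do different things, and 2 of them act on Argonaute itself in human cells, where casein kinase 1 alpha (CSNK1A1) phosphorylates AGO2 and a phosphatase that contains ANKRD52 removes those phosphates.

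The authors' table matched the 58 rows to 25 microRNA labels, which name 27 mature microRNAs. The sequences below are those whose label was matched to 2 or more of the 9 genes, and miR-382-5p, which had the highest count in control iNs. They come from RefSeq (GRCm38.p6), which matched 24 of the 27 names, and all lie on chromosome 12. Capitals mark the seed.
miR-543-3p: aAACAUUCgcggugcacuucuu
miR-381-3p: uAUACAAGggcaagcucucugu
miR-377-3p: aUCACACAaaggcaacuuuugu
miR-666-3p: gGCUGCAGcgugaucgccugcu
miR-1193-3p: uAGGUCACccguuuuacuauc
miR-134-5p: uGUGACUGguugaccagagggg
miR-495-3p: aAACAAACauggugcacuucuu
miR-485-3p: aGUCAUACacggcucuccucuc
miR-379-5p: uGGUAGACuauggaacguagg
miR-1193-5p: uGGUAGACcggugacguaca
miR-1197-3p: uAGGACACauggucuacuucu
miR-300-5p: uUGAAGAGagguuauccuuugu
miR-369-3p: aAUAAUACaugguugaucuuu
miR-411-3p: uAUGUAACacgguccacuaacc
miR-382-5p: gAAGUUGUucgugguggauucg
Among the 24 sequences there were 23 different seeds. The pair that shares one is miR-379-5p and miR-1193-5p, which the table joins in 1 label. The table likewise joins miR-381-3p and miR-539-3p.

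miR-543-3p was matched to the most members, with 8 rows over Lrrc58, Mycn, Pou2f1, Snhg11 and Spty2d1. The joint label of miR-381-3p and miR-539-3p had 5 rows over Crebrf, Mycn, Pou2f1 and Zkscan1. Another 5 labels (miR-377-3p, miR-666-3p, miR-1193-3p, miR-134-5p and miR-495-3p) were each matched to 3 members, and 11 labels to a single one. Crebrf held 3 rows of miR-485-3p, the most of any gene and label here. Rows are not independent, since the 58 rows rest on 50 regions, 53 sites and 39 blocks of abutting regions.

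**Figure D1:**
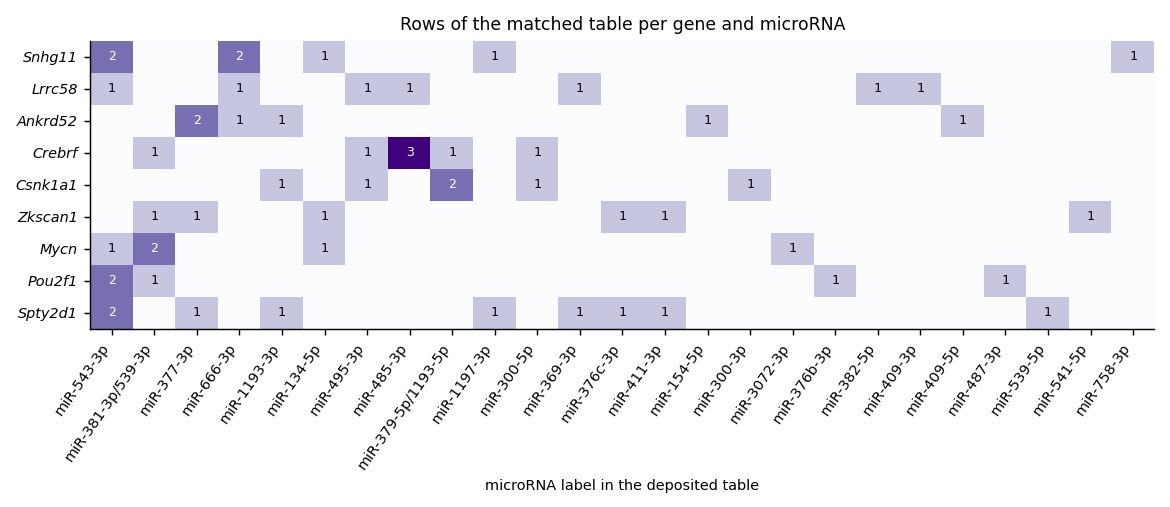
Number of rows of the authors' matched table for each gene (vertical axis) and microRNA label (horizontal axis, ordered by the number of genes matched); blank cells hold no row. miR-543-3p spans 5 of the 9 genes with 8 rows, and Crebrf holds 3 rows of miR-485-3p.

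All of the 25 labels but miR-487-3p, which matched no mature name in the small RNA tables, could be followed in the small RNA libraries, giving 26 microRNAs with counts. Together these made up 0.0136% to 0.0171% of the mature microRNA counts in deletion iNs, against 9.56% to 10.1% in control iNs. In ESCs the share was 0.00686% to 0.00928% with the deletion, against 6.25% to 6.91% in controls. No library of a deletion group came near a control library. Of the 26 microRNAs, 13 had no count in any deletion iN library and 13 none in any deletion ESC library. In iNs 21 of the 26 passed the filter on low counts and all 21 fell in deletion cells, where 24.2% of the 433 mature microRNAs tested fell. Scaled to all small RNA features instead of mature microRNAs, 178 of the 433 were lower and 32 higher in deletion iNs, against 105 and 73, and the median of all moved to -0.29, against -0.03 on the log2 scale. All 21 fell under that scaling too. In ESCs it moved the median of all to 0.15, against -0.04. In ESCs 23 passed the filter and all 23 fell, where 13.8% of the 450 mature microRNAs tested fell. These calls came from edgeR's quasi-likelihood test at a Benjamini-Hochberg adjusted p under 0.05.

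The matched microRNAs spanned a wide range of abundance. miR-382-5p had 235 counts over the 3 deletion iN libraries, against 174934 over the 3 control iN libraries, a level 485-fold higher in control iNs. miR-379-5p had 30 counts in deletion iNs against 61214 in control iNs, and miR-134-5p had 31 against 30859. miR-543-3p, which was matched to the most members, was far less abundant, with 0 counts in deletion iNs and 384 in control iNs. Against a floor of 3 counts over the group, that is at least 83.3-fold higher in control iNs. miR-485-3p had 0 counts in deletion iNs against 22 in control iNs. The least abundant in control iNs were miR-539-5p with 11 counts, miR-758-3p with 8 and miR-1193-5p with 2 over the 3 libraries. A floor of this kind covers counting error only.

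**Figure D2:**
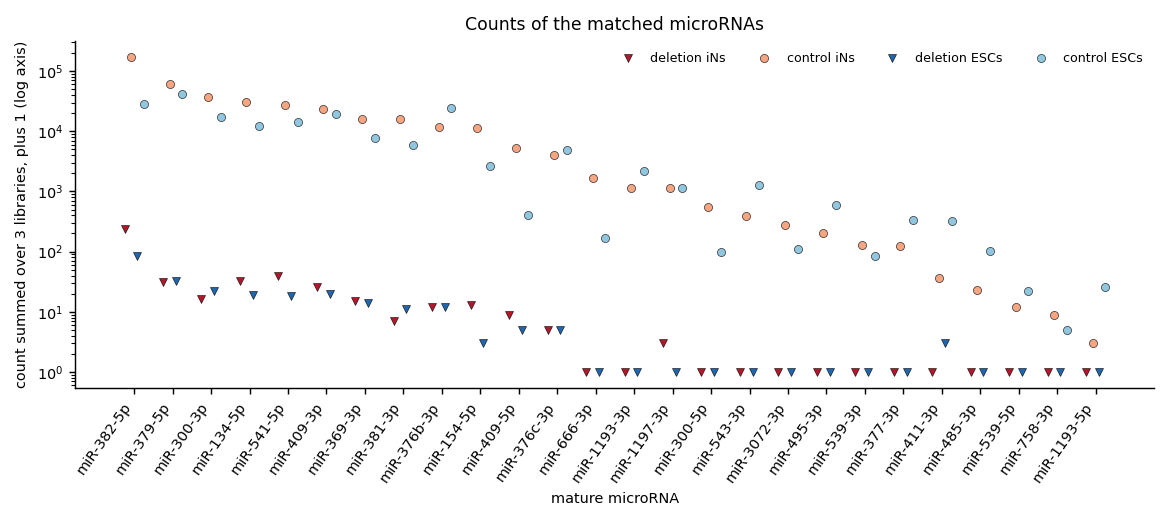
Counts of the 26 matched microRNAs summed over 3 libraries, plus 1, on a log axis, ordered by control iNs, with deletion groups as triangles and control groups as circles. Each deletion point lies below the control point of the same cell type, and the control iN sums run from 174934 for miR-382-5p to 2 for miR-1193-5p.

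The matched microRNAs of a gene were dominated by 1 of them in several cases. Lrrc58 had the largest total: its 7 microRNAs held 0.00908% to 0.0110% of mature counts in deletion iNs, against 4.89% to 5.06% in control iNs, and miR-382-5p gave 80.9% of that control sum. Csnk1a1's 6 microRNAs made up 0.00112% to 0.00188% in deletion iNs, against 2.16% to 2.53% in control iNs, with miR-379-5p giving 61.1%. Ankrd52 had the smallest total, 0.000610% to 0.000794% in deletion iNs against 0.433% to 0.477% in control iNs, with miR-154-5p giving 58.1%. Between these lay Zkscan1 (1.78% to 1.87% in control iNs), Crebrf (1.71% to 1.92%), Mycn (1.06% to 1.14%), Snhg11 (0.762% to 0.815%), Pou2f1 (0.597% to 0.702%) and Spty2d1 (0.506% to 0.545%).

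Between control iNs and control ESCs the matched microRNAs did not move one way. Of 23 tested, 11 were higher and 9 lower in control iNs, where 41.5% of 523 mature microRNAs were higher and 44.2% lower. Scaled to all small RNA features, 13 of the 23 were higher and 7 lower, and the median log2 fold change of all 523 was 0.25, against -0.24 here, and miR-1197-3p changed sign (0.048, against -0.45). miR-409-5p had the largest rise, a log2 fold change of 3.28 ± 0.16 (SE; adjusted p = 5.22e-11), with 5328 counts in control iNs against 409 in control ESCs. miR-411-3p had the largest fall, -3.62 ± 0.36 (adjusted p = 1.91e-07), with 35 counts in control iNs against 322 in control ESCs. miR-543-3p was also lower in control iNs, at -2.16 ± 0.23 (adjusted p = 2.95e-07). miR-382-5p was higher, at 2.21 ± 0.15 (adjusted p = 1.62e-09).

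The deposited region lists give 1 log2 fold and 1 -log10 p per region, made by the authors from the immunoprecipitate of HA-Ago2 over that of untagged Ago2 or over the HA-Ago2 input. Replicates were not kept apart. Both lists hold the same 22400 regions, the 50 member regions among them. Over untagged Ago2, 27 of the 50 had a log2 fold of at least 1 with a -log10 p of at least 2, where 9.25% of all 22400 regions and 37.3% of the 824 matched regions of other genes did. At a log2 fold and a -log10 p of at least 3, 13 of the 50 did, where 3.67% of all regions and 15.3% of the matched regions of other genes did. The 4-row threshold counts rows of the authors' table for this contrast and sets no fold. Nothing is read from these counts of regions. Over input, 47 of the 50 had a log2 fold of at least 1 with a -log10 p of at least 2, where 82.2% of all regions and 82.8% of the matched regions of other genes did.

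The folds over untagged Ago2 set the genes apart from each other. Ankrd52 ran from 1.71 to 4.35 (6 regions), Crebrf from 2.11 to 4.16 (6 regions), Pou2f1 from 2.96 to 4.08 (5 regions), Spty2d1 from 2.58 to 3.38 (4 regions) and Lrrc58 from 1.85 to 2.99 (6 regions). Mycn ran from 0.84 to 2.85 (5 regions) and Zkscan1 from 0.11 to 1.58 (5 regions). Snhg11 stayed between 0.21 and 0.77 (7 regions), and Csnk1a1 between -0.86 and 0.33 (6 regions). No region of Snhg11 or Csnk1a1 passed both values. In 5 of the 6 Csnk1a1 regions the untagged control had the higher signal. Over input those same Csnk1a1 regions had folds of 1.74 to 3.18, so the sign of the fold differed between the 2 controls in 5 of them. Snhg11 had 89 regions in its span in all, 82 of them unmatched, against 6 in the span of Spty2d1. Unmatched regions also differed by gene. Median folds of matched and unmatched regions over untagged Ago2 were 3.33 and 3.69 for Crebrf and 3.16 and 2.99 for Pou2f1. They were 3.41 and 1.86 for Ankrd52, 3.21 and 2.07 for Spty2d1 and 2.76 and 1.84 for Lrrc58. For Mycn they were 1.37 and 0.91, for Zkscan1 0.70 and 0.53, for Snhg11 0.50 and 0.32, and for Csnk1a1 -0.39 and -0.21.

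**Figure D3:**
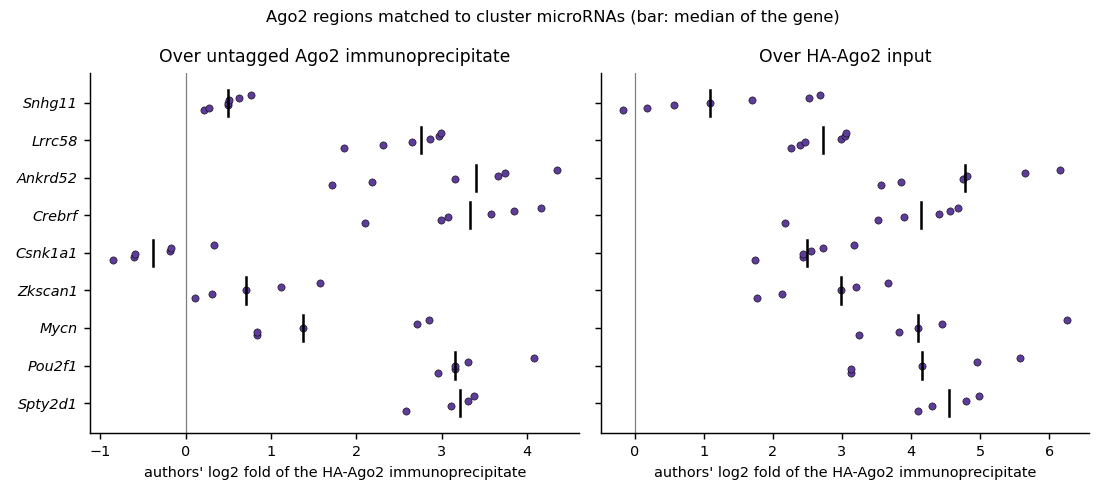
The authors' log2 fold of the HA-Ago2 immunoprecipitate for each matched region, over the untagged Ago2 immunoprecipitate (left) and over the HA-Ago2 input (right); each point is 1 region and the bar is the gene's median. The Csnk1a1 regions lie between -0.86 and 0.33 on the left and between 1.74 and 3.18 on the right.

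Gene spans were read from RefSeq (GRCm38.p6, equivalent to mm10) as starts and ends without exons, so a region is not assigned to an exon or a UTR. Except for 1 Ankrd52 region, the member regions lay inside the span of their gene, and the farthest region centre of a gene lay between 3.7% (Pou2f1) and 49.3% (Snhg11) of the span away from the 3′ end. Mycn's 5 regions were the tightest set, with centres 410.5 to 885.5 bases from the gene's 3′ end. Of the 58 rows, 51 have a site of 7 bases and 7 a site of 8 bases. In 39 rows the site lies wholly inside the region, and in all 58 it does once the region is widened by 20 bases on each side. One Ankrd52 region, at chr10:128395398-128395405, lies 1395.5 bases beyond the annotated end of the gene.

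The question that the RNA libraries address is whether these genes changed when the microRNAs were lost. In iNs 6 of the 9 passed the test: Crebrf, Snhg11 and Ankrd52 were higher in deletion iNs, and Mycn, Spty2d1 and Lrrc58 were lower. Over all 16028 genes tested, 25.6% passed, 12.4% higher and 13.3% lower. Among the 616 tested genes with any matched row, 36.9% passed, 14.3% higher and 22.6% lower. The groups did not overlap for 7 of the 9 members, against 40.8% of all genes. The members' median log2 fold change was -0.04, against 0.00 over all genes. In ESCs none of the 9 passed, where 1.91% of 16185 genes did, and the groups did not overlap for 1 of the 9, against 23.9% of all genes. By edgeR, 2 of the 9 (Crebrf and Pou2f1) had an unadjusted p under 0.05 in ESCs, and DESeq2's Wald test called 0. The replicate letters pair the ESC libraries, weakly for B. With the letter as a block, edgeR called 2 members, Crebrf and Pou2f1, both lower in deletion ESCs. It called 1019 genes in all, against 309 without the block. The authors' deposited DESeq2 tables likewise have 6 of the 9 under an adjusted p of 0.05 in iNs and 0 in ESCs.

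**Figure D4:**
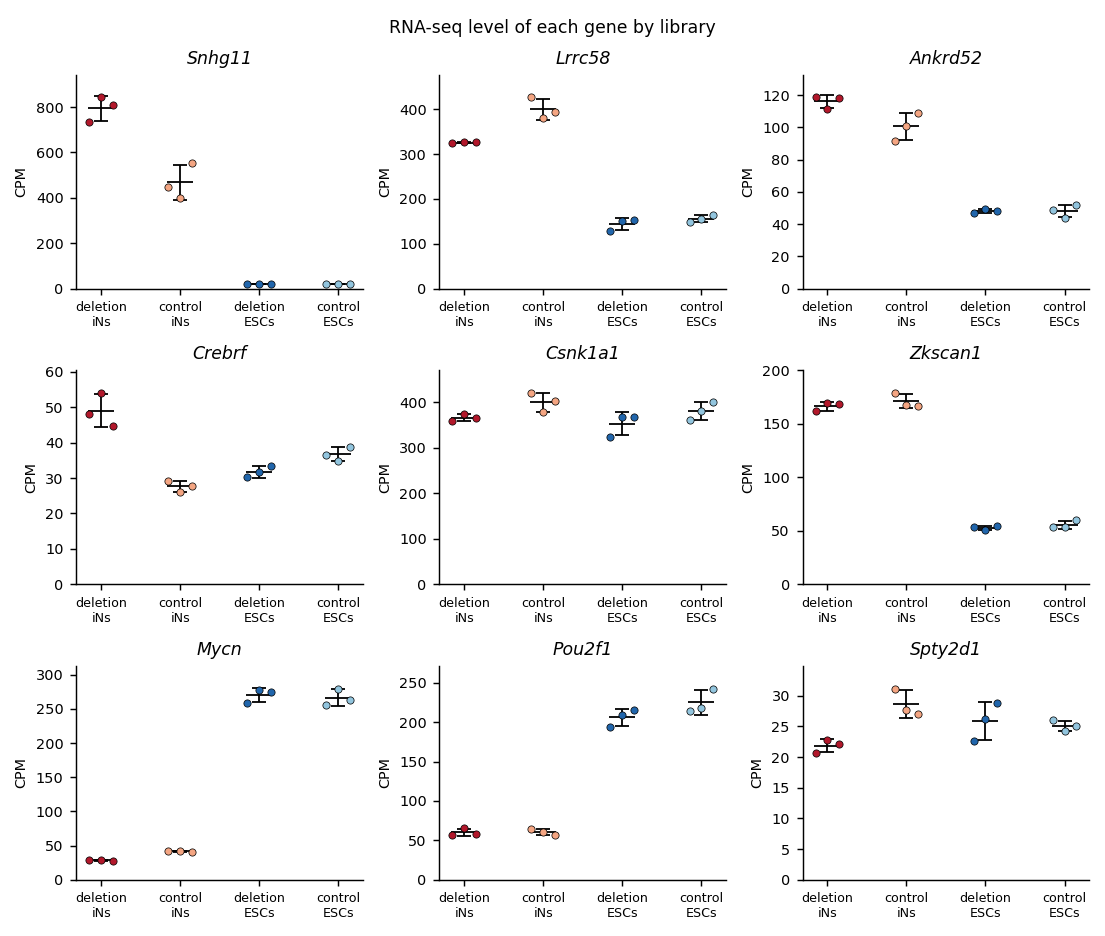
RNA-seq level of each gene in CPM (vertical axes start at 0) for the 3 libraries of each group, with the group mean and SD as bars. Snhg11 and Crebrf are highest in deletion iNs, and Mycn and Pou2f1 are highest in ESCs.

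Ankrd52 (chr10:128377124-128394006) is a regulatory subunit of protein phosphatase 6. Its level was 119, 111 and 118 CPM in deletion iNs, against 91.9, 101 and 109 CPM in control iNs. The groups did not overlap, but the nearest libraries were only 111 and 109 CPM. The log2 fold change was 0.21 ± 0.06 (SE; edgeR adjusted p = 0.0268). This call was lost on leaving out control iN replicate A or B or deletion iN replicate A or C, with adjusted p from 0.0624 to 0.109. In ESCs the level was 47.0, 49.3 and 48.4 CPM with the deletion, against 49.0, 44.0 and 51.6 CPM in controls, and the groups overlapped (-0.01 ± 0.06, adjusted p = 0.938).

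Csnk1a1 (chr18:61554236-61590320) encodes casein kinase 1 alpha, which also marks beta-catenin for destruction. Deletion iNs had 359, 375 and 365 CPM, against 421, 379 and 403 CPM in control iNs. Deletion libraries were all lower, but the difference was not called (-0.13 ± 0.05, adjusted p = 0.0910, approximate 95% interval -0.23 to -0.02). It passed without control iN replicate B (adjusted p = 0.0297). In ESCs the values were 324, 369 and 367 CPM with the deletion, against 361, 380.0 and 400.2 CPM in controls (-0.12 ± 0.06, adjusted p = 0.371). The estimates in iNs and ESCs were close, and their difference was -0.02 ± 0.08 (interval -0.18 to 0.14).

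Mycn (chr12:12936093-12941836, minus strand) is a MYC family transcription factor that dimerises with Max and drives growth of neural progenitors. It had 28.5, 29.2 and 27.7 CPM in deletion iNs, against 41.7, 42.6 and 40.1 CPM in control iNs. Every deletion library was lower, and the log2 fold change was -0.54 ± 0.06 (adjusted p = 1.89e-05), or 1.46-fold lower. In ESCs it had 259, 277 and 274 CPM with the deletion, against 256, 279.9 and 264 CPM in controls. Those groups overlapped (0.00 ± 0.05, adjusted p = 0.979).

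Pou2f1 (chr1:165865150-166002749, minus strand) encodes Oct-1, a broadly expressed factor that binds the octamer element. It had 57.0, 65.5 and 58.5 CPM in deletion iNs, against 64.1, 60.7 and 57.0 CPM in control iNs, and the groups overlapped (0.00 ± 0.07, adjusted p = 0.971, interval -0.14 to 0.13). In ESCs it had 194, 209 and 215 CPM with the deletion, against 214, 218 and 243 CPM in controls (-0.14 ± 0.06, adjusted p = 0.281). With the replicate letter as a block, the ESC difference passed (adjusted p = 0.0399). The deposited TPM went the other way in ESCs, 22.4 ± 4.3 with the deletion and 21.0 ± 1.0 in controls (SD, n = 3 each). The gene overlaps Cd247 on the annotation, and the strand setting of the counting was not given in the sources used here. By position, without regard to strand, the 5 matched regions of Pou2f1 also lie inside the span of Cd247.

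Zkscan1 (chr5:138085050-138107822), a zinc finger gene with SCAN and KRAB domains, had 162, 169 and 168 CPM in deletion iNs, against 179, 168 and 167 CPM in control iNs. The groups overlapped (-0.04 ± 0.05, adjusted p = 0.640, interval -0.14 to 0.07). In ESCs it had 53.0, 50.8 and 54.3 CPM with the deletion, against 53.3, 53.0 and 60.0 CPM in controls (-0.09 ± 0.06, adjusted p = 0.484). The interval in iNs allows a change of up to 0.14 on the log2 scale downward.

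Crebrf (chr17:26715594-26776637) encodes a regulator of the CREB3 transcription factor. It had 48.2, 54.1 and 44.8 CPM in deletion iNs, against 29.1, 26.1 and 27.7 CPM in control iNs. The lowest deletion library stood well above the highest control one, and the log2 fold change was 0.83 ± 0.08 (adjusted p = 1.85e-06), or 1.78-fold. In ESCs it ran the other way, with 30.2, 31.6 and 33.6 CPM with the deletion, against 36.5, 34.9 and 38.8 CPM in controls. The ESC groups did not overlap, and the difference of -0.22 ± 0.06 was not called (adjusted p = 0.117). With the replicate letter as a block it was called (-0.23, adjusted p = 0.0304).

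Spty2d1 (chr7:46990396-47008414, minus strand), related to the yeast histone chaperone Spt2, had 20.7, 22.7 and 22.2 CPM in deletion iNs, against 31.2, 27.7 and 27.1 CPM in control iNs. No deletion library reached a control one, and the log2 fold change was -0.39 ± 0.08 (adjusted p = 0.00248). In ESCs it had 22.7, 26.2 and 28.9 CPM with the deletion, against 26.0, 24.2 and 25.1 CPM in controls, and the groups overlapped (0.03 ± 0.09, adjusted p = 0.905).

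Snhg11 (chr2:158375713-158386474), a long noncoding RNA that hosts small nucleolar RNAs and is known from neurons, was the most abundant member in iNs by CPM. It had 734, 842 and 809 CPM in deletion iNs, against 447, 400.4 and 555 CPM in control iNs. The groups were far apart, and the log2 fold change was 0.77 ± 0.09 (adjusted p = 2.13e-05), or 1.70-fold. In ESCs it had 22.2, 19.8 and 21.1 CPM with the deletion, against 21.1, 18.8 and 20.5 CPM in controls, with overlap (0.05 ± 0.07, adjusted p = 0.784).

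Lrrc58 (chr16:37868400-37888857), a leucine-rich repeat gene, had 324, 328 and 326 CPM in deletion iNs, against 427, 380.2 and 393 CPM in control iNs. The deletion libraries were close together and below each control library (-0.29 ± 0.05, adjusted p = 0.000892). In ESCs it had 128, 152 and 153 CPM with the deletion, against 149, 155 and 165 CPM in controls, with overlap (-0.13 ± 0.08, adjusted p = 0.444). A pseudogene, Gm15725, lies within its span.

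The deposited TPM gave another scale for the same libraries. In iNs the ratio of TPM with the deletion to TPM in controls had a median of 0.23 over 16024 genes on the log2 scale, against 0.00 on the CPM scale. Relative to that median, the 6 called members kept their direction, from 0.75 for Snhg11 to -0.54 for Mycn. Crebrf was smaller on this scale, at 0.60 against 0.83 by counts. Taken raw, Lrrc58 was 39.9 ± 2.0 TPM in deletion iNs and 41.7 ± 1.4 TPM in control iNs (SD, n = 3 each), with overlapping libraries. Spty2d1 also overlapped on raw TPM, with 4.57 to 4.96 TPM in deletion iNs and 4.82 to 5.55 TPM in control iNs, and the other 4 called members did not.

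The test of the difference between cell types called 4 of the 9 members, against 13.5% of 18299 genes. The effect of the deletion in iNs exceeded that in ESCs by 1.04 ± 0.11 for Crebrf (adjusted p = 1.35e-05) and by 0.70 ± 0.14 for Snhg11 (adjusted p = 0.00438). The effect in iNs minus that in ESCs was -0.56 ± 0.07 for Mycn (adjusted p = 0.000107) and -0.43 ± 0.12 for Spty2d1 (adjusted p = 0.0277). For Lrrc58 (-0.18 ± 0.09, adjusted p = 0.222) and Ankrd52 (0.21 ± 0.10, adjusted p = 0.178), which passed in iNs and not in ESCs, a difference between the cell types was not shown. Spty2d1 lost its call on leaving out control ESC replicate B or C, deletion ESC replicate B or C, control iN replicate A, or deletion iN replicate A, B or C, with adjusted p from 0.0502 to 0.0719.

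**Figure D5:**
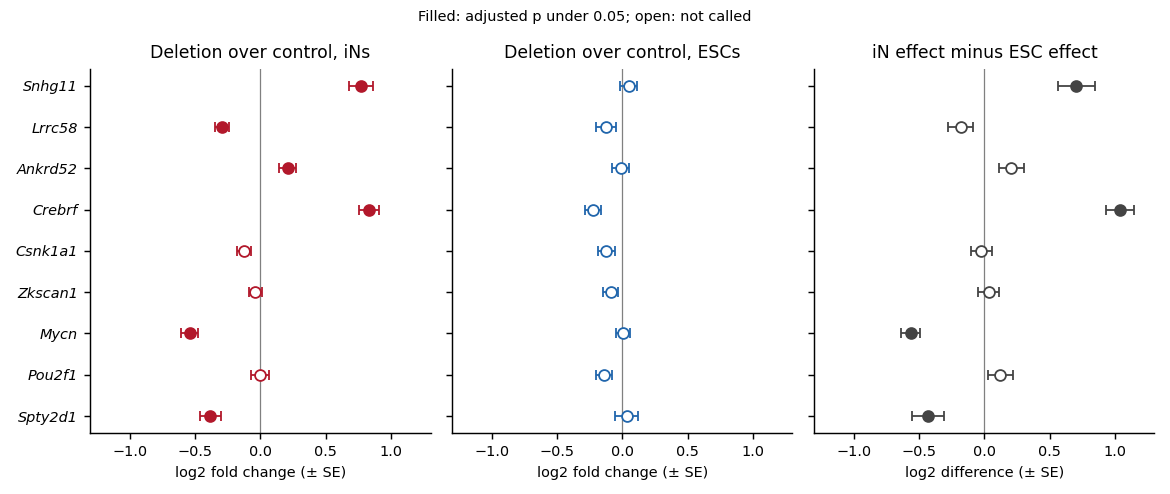
Log2 fold change of deletion over control in iNs (left) and ESCs (middle), and the difference between the 2 (right), each with its SE; filled points passed an adjusted p of 0.05. Crebrf reaches 0.83 in iNs and -0.22 in ESCs, and no ESC point is filled.

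Between control iNs and control ESCs the median size of the members' log2 fold changes was 1.35, against 0.29 with the deletion in iNs. For Crebrf, Spty2d1 and Csnk1a1 it was smaller between the cell types than with the deletion. Of the 9, 8 passed, 5 higher and 3 lower in control iNs, in a comparison where 89.0% of 17247 genes passed, 43.9% higher and 45.1% lower. The groups did not overlap for 8 of the 9, against 89.5% of all genes. Snhg11 rose the most, with a log2 fold change of 4.53 ± 0.12. Zkscan1 (1.62 ± 0.06), Lrrc58 (1.35 ± 0.06) and Ankrd52 (1.06 ± 0.08) were also higher in control iNs, and Spty2d1 slightly so (0.18 ± 0.07, adjusted p = 0.0343). Mycn was 6.44-fold lower in control iNs (-2.69 ± 0.06) and Pou2f1 3.73-fold lower (-1.90 ± 0.07). Csnk1a1 was not called (0.07 ± 0.06, interval -0.04 to 0.18). This comparison and that of deletion with control iNs share the control iN libraries.

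Crebrf was lower in control iNs than in control ESCs by counts (-0.42 ± 0.07, adjusted p = 0.000113), but not by TPM, with 8.63 ± 1.44 in control iNs and 7.94 ± 0.37 in control ESCs (SD, n = 3 each). Spty2d1's call was lost with DESeq2's Wald test (adjusted p = 0.0924), without the filter on low counts (adjusted p = 0.0918), with the replicate letter as a block (adjusted p = 0.0572) and on leaving out control ESC replicate A, B or C or control iN replicate A, with adjusted p from 0.0620 to 0.138.

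Levels of different genes compare on the TPM scale, which is per length. In deletion iNs Snhg11 (161 ± 6.8 TPM) and Csnk1a1 (150.3 ± 6.7 TPM) were highest, followed by Lrrc58 (39.9 ± 2.0), Zkscan1 (26.5 ± 1.2), Ankrd52 (19.3 ± 1.7), Crebrf (15.4 ± 0.9), Mycn (12.3 ± 0.7), Pou2f1 (8.11 ± 0.15) and Spty2d1 (4.73 ± 0.20; all SD, n = 3). In control iNs Csnk1a1 came first at 144 ± 7.7 TPM and Snhg11 second at 81.5 ± 14.5 TPM. Mycn at 15.2 ± 1.5 TPM and Ankrd52 at 14.2 ± 2.0 TPM were within each other's spread there, as were Crebrf at 8.63 ± 1.44 and Pou2f1 at 7.48 ± 1.11. In control ESCs Csnk1a1 (133 ± 4.5 TPM) and Mycn (101 ± 0.26 TPM) led, and Snhg11 was last at 3.92 ± 0.34 TPM, close to Spty2d1 at 4.70 ± 0.36.

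The genes nearest to each member in level over the 12 RNA libraries were taken by the highest Pearson r of log2 CPM, with a floor of 2 on the mean log2 CPM and no Gm or Rik symbols. The libraries fall into 2 cell types, and r is given as a description only. Snhg11 was nearest to Aff2 (r = 0.9993) and Cacna1a (0.9988). Elavl2 (0.9993) was among the 2 genes nearest to Zkscan1. Mycn was nearest to Slc25a5 (0.9992) and Chaf1b (0.9991), and Pou2f1 to Mbtd1 (0.9991) and Brca2 (0.9986). Lrrc58 was nearest to Fnbp1l (0.9979) and Manea (0.9969), and Ankrd52 to Ahnak2 and Washc2 (both 0.997). Likeness was weaker for Csnk1a1 with Erbin (0.9638) and Zbtb33 (0.9271), Crebrf with Miga1 (0.9309) and Ezh1 (0.9277), and Spty2d1 with B3gnt5 (0.9091) and Lin28b (0.8913).

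Genes that work with the members, or are their relatives, were counted in fixed lists. Of 20 genes of Argonaute silencing and deadenylation, 4 were higher and 1 lower in deletion iNs, with a median log2 fold change of -0.02 against 0.00 over all genes. Their share called, 25%, was near the 25.6% of all genes. Tnrc6b, a scaffold between Argonaute and deadenylases, averaged 357 ± 8.3 CPM in deletion iNs and 257 ± 20 in control iNs (0.48 ± 0.06, adjusted p = 3.03e-05). Ago4 averaged 10.8 ± 0.6 CPM in deletion iNs and 7.24 ± 0.76 CPM in control iNs (0.57 ± 0.12, adjusted p = 0.00248). The gene that was lower was Cnot6l, with 50.3 ± 4.1 CPM in deletion iNs and 58.9 ± 3.4 CPM in control iNs (-0.22 ± 0.07, adjusted p = 0.0256). Ago2 itself was not called (0.01 ± 0.05, adjusted p = 0.877).

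Among 13 casein kinase 1 and protein phosphatase 6 genes, which include Csnk1a1 and Ankrd52, 2 were higher and 3 lower in deletion iNs, or 38.5% called, against 25.6% of all genes, and the median was -0.05 against 0.00. Ppp6c, the catalytic subunit of the phosphatase, averaged 77.8 ± 4.9 CPM in deletion iNs and 97.5 ± 10.4 CPM in control iNs (-0.32 ± 0.07, adjusted p = 0.00484). Ankrd28, another regulatory subunit, was also lower (-0.28 ± 0.07, adjusted p = 0.00677), and Ankrd44 was higher (0.51 ± 0.10, adjusted p = 0.00232). Ankrd52 and Ankrd44 moved opposite to Ppp6c and Ankrd28.

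The 12 genes of the MYC and MAX network, Mycn included, had 5 higher and 1 lower in deletion iNs, where 12.4% of all genes were higher and 13.3% lower, with a median of 0.06 against 0.00 over all genes. Mycn was the one that was lower. Mycl, its close relative, averaged 7.34 ± 0.60 CPM in deletion iNs and 4.55 ± 0.88 CPM in control iNs (0.71 ± 0.16, adjusted p = 0.00355). Mxd1 (0.69 ± 0.13, adjusted p = 0.000926) and Mxd4 (0.45 ± 0.08, adjusted p = 0.000922), which compete for Max, were also higher. In ESCs only Myc of this list passed, with 80.8 ± 1.0 CPM with the deletion and 59.0 ± 4.6 CPM in controls (0.44 ± 0.06, adjusted p = 0.00920). Myc was higher in deletion iNs as well (0.35 ± 0.08, adjusted p = 0.00330). A difference of its effect between the cell types was not called (-0.11 ± 0.09, adjusted p = 0.503).

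Of 11 octamer-binding and related POU genes, 9 were tested in iNs, 4 higher and 1 lower in deletion iNs, where 12.4% of all genes were higher and 13.3% lower, with a median of 0.32 against 0.00 over all genes. Pou4f3 (1.39 ± 0.20, adjusted p = 9.76e-05), Pou3f2 (1.17 ± 0.19, adjusted p = 0.000358) and Pou3f3 (0.89 ± 0.28, adjusted p = 0.0315) were higher, and each averaged under 6 CPM in both groups. The gene that was lower was Pou4f2 (-0.61 ± 0.11, adjusted p = 0.00106). Of 16 small nucleolar RNA host genes, 13 were tested and 2 (15.4%) were higher in deletion iNs, where 12.4% of all genes were, Snhg11 and Snhg14 (0.28 ± 0.09, adjusted p = 0.0294). In control iNs against control ESCs, 10 of 13 host genes were lower and 3 higher, with a median of -2.17 against -0.03 over all genes. Snhg1, for example, averaged 14.1 ± 1.3 CPM in control iNs and 164 ± 11 CPM in control ESCs (-3.55 ± 0.07, adjusted p = 1.69e-13), opposite to Snhg11.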

How the data were processed

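Per the submitters' processing notes, the build was mm10 and the tools included RSEM 1.2.30, STAR 2.4.1d and cutadapt 1.4.2, with no roles given. The deposited gene files hold expected counts and TPM, per the file headers. The authors' DESeq2 tables hold log2 fold changes, p-values and mean normalised counts, a signal value, per the file headers. The authors' region lists give a log2 fold and a −log10 p per region, from columns without names. The region caller and the strand setting are not given in the sources used here. Sites could not be printed because no genome of this build was used.

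Expected counts were rounded and tested over all genes with the quasi-likelihood F test of edgeR 4.0.16 (R 4.3.3), after filterByExpr (minimum count 10) and TMM scaling, with Benjamini-Hochberg adjusted p under 0.05 as the call. CPM uses the scaled library size, and the SE is the size of the log2 fold change divided by the square root of F. The approximate 95% interval is 1.96 SE on each side. A comparison of 2 groups used their 6 libraries, and the comparison of effects between cell types all 12. The step was tested on simulated counts, with changes larger than those of the members with the deletion. That run does not bear on changes as small as theirs. MicroRNA accessions were named by matching the authors' mean normalised counts to the counts with a relative tolerance of 1e-08, which named 832 of 1907 accessions and 99.99% of counts.

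The members and gene lists were chosen with earlier results of these data known. All 9 members and all matched microRNAs are named. Of each list, at most 3 called genes with no overlap between groups and the largest changes are named, besides members. Ago2, Pou4f2 and the iN value of Myc were chosen after their values were seen. Per member, the 2 genes with the highest Pearson r were taken, of which 1 is not reported here.

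Replicate letters pair the ESC RNA libraries, weakly for B: same-letter deviations from the group means correlated at 0.539, 0.152 and 0.313 for A, B and C. In the small RNA of ESCs the same values were 0.536, 0.031 and 0.362, so letters A and C paired there and B did not. With all 12 RNA libraries, deletion ESC replicate B correlated at 0.069 with control ESC replicate B and was closest to control ESC replicate C. Between the genotypes of iNs, and between iN and ESC libraries, no such pairing was seen. Alternatives were DESeq2 1.42.0 size factors and Wald test, no filter, each library left out, a replicate block, all 12 libraries in 1 fit, posterior mean counts, leaving mitochondrial, 7S and ribosomal-RNA-like genes out, and scaling to all small RNA features. A stricter region threshold and the TPM scale were added after seeing the data.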

Additional observations from a re-analysis of the deposited data

Results flagged for a closer look

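The following 4 members had an effect of the deletion that differed between iNs and ESCs by the test of that difference (edgeR, all 12 RNA libraries). The log2 effect in iNs minus that in ESCs was 1.04 for Crebrf, 0.70 for Snhg11, -0.56 for Mycn and -0.43 for Spty2d1. The call of Crebrf, Snhg11 and Mycn held in each of the 18 alternatives run for it, and that of Spty2d1 in 10 of 18. The marker sums that differ between deletion and control cells were given with the libraries, and their part in these 4 results was not tested.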

How the results depend on the processing

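With the deletion in iNs, 5 to 6 members were called on leaving out each library in turn, and 6 with a replicate block, DESeq2's Wald test and each of the other alternatives run. In ESCs, none was called except with the replicate block, which called 2 (Crebrf and Pou2f1, both lower). The count of genes called in ESCs was 309, but 504 without the filter, 1019 with the replicate block and 90 to 315 on leaving out 1 library. Mature microRNAs called in ESCs numbered 73, against 118 without the filter and 179 with the replicate block. The block left 3667 genes in iNs, 15054 between control iNs and control ESCs (7 members) and 2120 for the difference of effects (4 members), all within 1.5 times. On leaving out 1 library, 3 to 5 members were called for the difference of effects and 7 to 8 between cell types. Between control iNs and control ESCs, small RNA counts scaled to all features turned miR-1197-3p to 0.048, against -0.45, and the cause was not tested. On the TPM scale, Crebrf between control iNs and control ESCs turned to 0.19 relative to the median gene, and the cause was not tested. With a log2 fold and a −log10 p of at least 3, 13 member regions passed, against 27. Depth limits the least abundant microRNAs, which had 2 to 11 counts in control iNs.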

Other observations

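The share of genes that passed the test in deletion iNs was counted by the number of rows a gene holds in the matched table, and the differences between these sets were not tested. It was 36.2% of 417 genes with 1 row, 31.2% of 125 with 2 rows, 47.1% of 34 with 3 rows and 48.4% of 31 with 4 or more rows other than the 9 members. Over all 16028 genes it was 25.6%. The direction differed by set. Of the 417 with 1 row, 54 were higher and 97 lower, and of the 125 with 2 rows, 21 were higher and 18 lower. Of the 34 with 3 rows, 3 were higher and 13 lower, and of the 31, 7 were higher and 8 lower. Over all 616 matched genes, 88 were higher and 139 lower. In ESCs the share that passed was 3.89% with 1 row, 4% with 2 rows, 9.09% with 3 rows and 0% with 4 or more rows other than the members, against 1.91% of all genes. Expression levels were not matched between these sets.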
